A study of Homo sapiens with 6 samples.

Results

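The RAB family of small GTPases and the RAB11 family interacting proteins were examined in 6 microarrays of the human line BCWM1, long kept in culture and grown out of Waldenström macroglobulinemia, in which lymphoma cells range between B cell and plasma cell. Members were chosen by name: every probe set whose platform annotation gives 1 gene symbol made of RAB, 1 or 2 digits and at most 2 further characters, together with RAB11FIP1 to RAB11FIP5. This gave 64 genes on 159 probe sets, of 19775 genes and 54613 probe sets on the array. One of them, RAB3IP, is no GTPase but encodes Rabin8, an activator of RAB8, and the 5 RAB11FIP genes encode effectors. A further 14 probe sets that carry a RAB symbol beside another symbol, among them those of RAB34 and 4 of the 5 of RAB6A, were left out. BCWM1 cells labelled as mutated (3 samples) were compared with parental BCWM1 cells (3 samples), both without any stated treatment. By the series title the mutation is C1013G in CXCR4. The labels leave unsaid how the mutated cells were made, whether they are 1 clone and whether a vector control exists. Nothing in them separates replicate cultures, and the p-values therefore rest on a spread between samples that may be technical.

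RAB proteins are switches of membrane traffic. Loaded with GTP by exchange factors, they sit on the surface of a particular organelle through lipid tails and recruit effectors that move, tether or fuse vesicles, and GTPase-activating proteins turn them off. In B cells and plasma cells this traffic carries newly made immunoglobulin from the endoplasmic reticulum through the Golgi to the surface, takes up and recycles receptors such as the B cell receptor and CXCR4, and delivers antigen to the compartments where it is loaded on MHC class II.

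Values are the authors' intensities per probe set, and changes are mutated minus parental differences of log2(intensity + 16), a scale that understates the change of dim genes. Array medians were 31.42, 30.93 and 31.83 in mutated and 29.13, 28.46 and 28.99 in parental cells. CXCR4 gave negative changes on all 3 of its probe sets, with −0.15 on the log2 scale on the brightest (adjusted p = 0.03, limma). The labelled cell type showed its markers: all 6 B cell markers and all 7 plasma cell markers with a probe set of 1 symbol lay above the highest array median in every sample, against 0 of 6 T cell, 1 of 4 NK cell (NKG7), 0 of 5 myeloid, 0 of 4 epithelial and 2 of 5 stromal markers (COL1A1 and DCN). Their summed intensity ran from 26513 to 27320 in mutated and from 26299.7 to 27018 in parental cells for B cells, and from 13238 to 13929.5 in mutated and from 15280.3 to 15839 in parental cells for plasma cells. The summed stromal markers ran from 473 to 571 in mutated and from 735 to 827 in parental cells. The plasma cell and stromal sums thus differ between the groups, and their part in the results was not tested. In these bulk samples fewer cells with a transcript and less of it per cell cannot be told apart.

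RAB27A, which docks secretory granules and exosome-bearing endosomes at the cell surface, fell to less of its parental intensity than any other member whose groups did not overlap, and RAB33A fell beside it. RAB13, which guides cargo from recycling endosomes to the surface, and RAB4A, which serves rapid recycling from early endosomes, rose most. Of 54 members with a probe set that passed the filter on dim values, 20 rose and 13 fell (37% and 24.1%), where 30.1% of all 13644 genes tested rose and 18.9% fell (limma with Benjamini-Hochberg adjustment over 32768 probe sets, threshold 0.05). These shares lie near those of all genes. The groups did not overlap in 38 members (70.4%), against 61.2% of all genes. The median change was 0.06 over the members and 0.04 over all genes tested, and the median absolute change 0.26 and 0.21. A called change of at least 0.5 on the log2 scale was seen in 12 members (22.2%), against 17.7% of all genes. Of these 7 rose (13%) and 5 fell (9.26%), against 11.7% and 6.03% of all genes. Rises made up 60.6% of the members' calls and 61.5% of those of all genes, but quantile normalization gave 48.3% and 49.6%, and median centring 38.5% and 46.1%, so which direction is in the majority depends on the scaling. Of the 33 called members, 27 were still called the same way with quantile normalization and 23 with median centring. Of the 33 calls, 21 held whichever sample was left out. The other 12 were RAB40B and RAB9B, and 10 small changes whose highest adjusted p without 1 sample lay between 0.052 and 0.13. RAB6A failed without parental replicate 3, RAB43 without parental 2 or 3, RAB42 without parental 1 or 3, and RAB15 without mutated 1 or parental 2. RAB30 failed without mutated 1 or 2 or parental 1 or 3, RAB5B, RAB3IP and RAB11FIP2 in every such fit except that without mutated 3, and RAB8B and RAB9A in all 6 fits. The number that rose was 12 without parental replicate 3, 13 without parental replicate 2, and 14 to 18 without any 1 of the other samples.

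**Figure D1:**
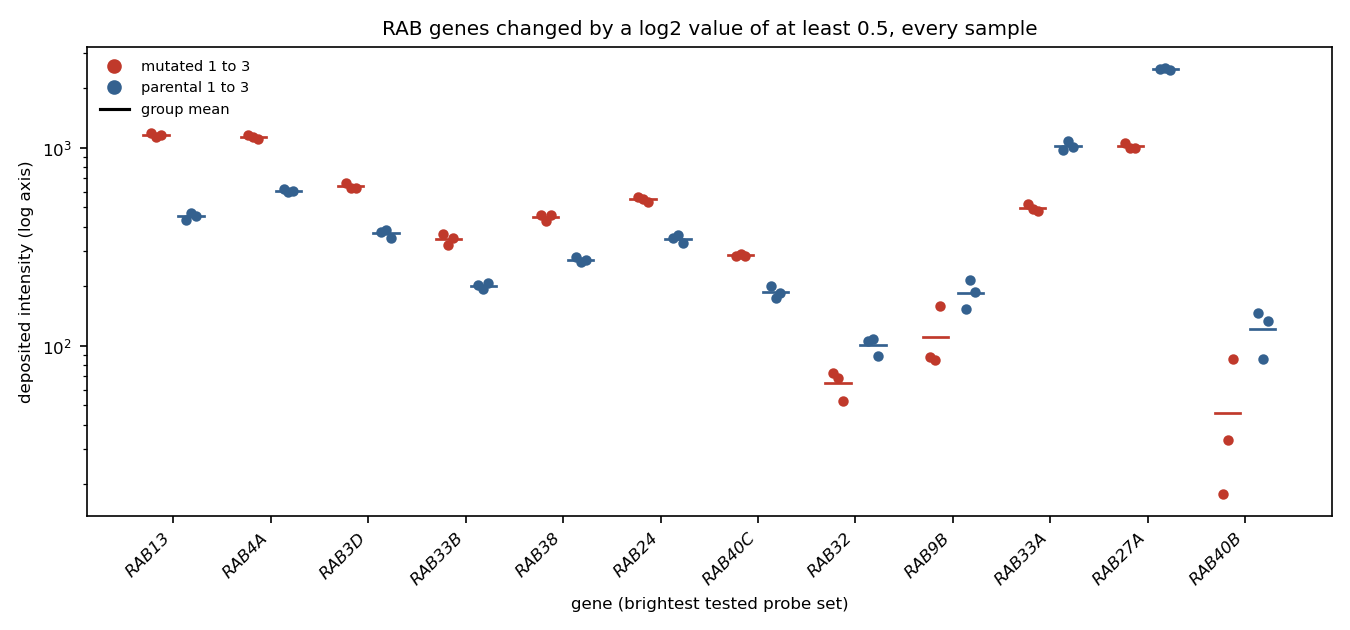
Deposited intensity (log axis) of the 12 RAB genes with a called log2 change of at least 0.5, on the brightest tested probe set of each. Points are the 3 mutated samples (left of each pair) and the 3 parental samples (right), and bars are group means. The groups overlap in RAB9B and RAB40B and are apart in the other 10.

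Among the RABs of regulated secretion, 5 of 8 were tested. RAB27A had intensities of 1062, 996 and 1000.03 in mutated cells, against 2501, 2516 and 2459 in parental cells. Every mutated sample lay far below every parental sample, at a mean of 1019 ± 36.8 in mutated and 2492 ± 29.4 in parental cells (SD, n = 3 each). The log2 change was −1.28 (SE 0.049; limma, adjusted p = 5.47e-06), and the other 4 probe sets of the gene gave −1.24, −1.21, −1.12 and −1.09, each past the threshold. Its closest relative RAB27B, which shares the role in exosome release, was dim: 48.4, 64.6 and 73.7 in mutated cells, against 57.0, 51.0 and 53.7 in parental cells. These values overlap, with a log2 change of 0.15 (adjusted p = 0.35). RAB3D, known from the secretory granules of exocrine cells, moved the other way, with 665, 624 and 626 in mutated cells, against 377, 384 and 351 in parental cells. All 3 mutated values were above the parental ones, a log2 change of 0.76 (SE 0.057; limma, adjusted p = 1.00e-04), while a dim second probe set gave 0.16 and did not pass. RAB3C, a synaptic vesicle relative, had 43.6, 44.2 and 44.0 in mutated cells, against 68.3, 65.2 and 64.4 in parental cells, a fall by 0.45 on the log2 scale. RAB3B (−0.23) did not pass, and RAB3A, RAB26 and RAB37 stayed below the filter, with no probe set mean over 23.01, which was that of RAB3A in mutated cells (10.34 in parental cells).

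Known effectors of RAB27A did not move one way. SYTL2, a synaptotagmin-like protein that binds RAB27A on granules, had 62.4, 63.6 and 62.4 in mutated cells, against 18.8, 25.6 and 23.6 in parental cells. The mutated values were all higher, a log2 change of 1.03. The partners given next are also on the effector list and were picked out after their values were seen. EXPH5 rose by 0.23, while UNC13D, the granule priming factor Munc13-4, fell by 0.42, RPH3A by 0.41 and the motor gene MYO5A, which carries RAB27A-coated granules on actin through a linker protein, by 0.33 on the log2 scale. SYTL1 (0.22), SYTL3 (−0.05), SYTL4 (−0.17), RPH3AL (0.02) and the linker MLPH (−0.08) did not pass, and SYTL5 stayed below the filter.

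For early endosomes and recycling, RAB4A had intensities of 1159, 1137 and 1105 in mutated cells, against 619.8, 595 and 604 in parental cells. No mutated value came near a parental one, at means of 1134 ± 27.3 in mutated and 606 ± 12.7 in parental cells (SD, n = 3 each), and the log2 change was 0.89 (SE 0.047; limma, adjusted p = 2.32e-05). The other 2 probe sets gave 1.24 and 1.25. RAB5A, which drives fusion of early endosomes, had 1948, 1929.6 and 1958 in mutated cells, against 1749.6, 1785 and 1814 in parental cells. The mutated samples were above the parental ones by a narrow margin, and the change of 0.12 did not pass (adjusted p = 0.058), but a dimmer probe set gave 0.90 and passed, and the other gave 0.13. RAB5B (0.28) and RAB17 (0.26), which acts in polarised epithelial cells, rose. RAB5C (0.0025) and RAB22A (0.02) did not pass. RAB20, an endosomal and phagosomal RAB, fell by 0.31 and RAB21, which carries integrins inward, by 0.35 on its brightest probe set. RAB31 and RAB4B stayed below the filter.

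RAB13 had the largest rise of the family, with 1188, 1129.95 and 1160.1 in mutated cells, against 432, 468 and 451 in parental cells. The 2 groups were well apart, at 1159 ± 28.9 in mutated and 450.5 ± 18.2 in parental cells (SD, n = 3 each), a log2 change of 1.33 (SE 0.052; limma, adjusted p = 6.01e-06) on its only probe set. RAB40C, which recruits a cullin ubiquitin ligase through a SOCS box, had 285, 290.4 and 284 in mutated cells, against 201, 175 and 184 in parental cells. Its mutated values were higher in all 3 samples, a change of 0.58, but the 2 other tested probe sets gave 0.03 and −0.11 and did not pass. Its relative RAB40B, which sorts matrix proteases to the invading edge of tumour cells, scattered widely, with 17.8, 33.3 and 85.7 in mutated cells, against 146, 85.6 and 133 in parental cells. The groups overlap, and the fall by 1.29 on the log2 scale (SE 0.4; limma, adjusted p = 0.037) did not pass without mutated replicate 1 (−0.93, adjusted p = 0.084) or 2 (−1.20, 0.095) or parental replicate 1 (−1.15, 0.11) or 3 (−1.22, 0.10). The recycling RAB11A, the best known member of this compartment, had 5746, 5776 and 5486 in mutated cells, against 5378, 5381 and 5316 in parental cells. These values are close, with a change of 0.08 that did not pass (adjusted p = 0.2), although 1 dimmer probe set gave 0.38 and passed. RAB12 (0.24), which directs transferrin receptor to lysosomes, RAB15 (0.26) and RAB8B (0.17) rose. The dimmer probe set of RAB15 pointed the other way, with −0.29, and did not pass. The call of RAB15 was lost with quantile normalization, with median centring and as the mean over its probe sets. RAB8A (−0.10), RAB10 (0.07), RAB11B (−0.09), RAB14 (−0.11), RAB35 (0.07) and RAB40AL (0.0085) did not pass. RAB25 and RAB40A stayed below the filter.

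The RAB11 interacting proteins, which link RAB11 to motors and tethers, differed among themselves. RAB11FIP1, the coupling protein that binds both RAB4 and RAB11, had 527, 538 and 559 in mutated cells, against 756, 739 and 731 in parental cells. All mutated values were lower, a change of −0.44 (SE 0.048; limma, adjusted p = 4.92e-04), and its other 2 probe sets gave −0.63 and −0.71. RAB11FIP4 fell by 0.28 on its brightest probe set, while its others gave 0.10 and −0.15 where tested and did not pass. RAB11FIP2, which binds myosin Vb, rose by 0.21, while its dimmer probe set gave 0.10 and did not pass. RAB11FIP3 (−0.03) did not pass on its brightest probe set, while another gave −0.25 and passed, and RAB11FIP5 stayed below the filter. RAB3IP rose by 0.17.

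In late endosomes, lysosomes and lysosome-related organelles, 5 of 10 tested members fell and 3 rose, where 18.9% of all genes tested fell and 30.1% rose; with groups this small the shares are given as a description. RAB7A, which brings late endosomes to lysosomes, had 2258, 2367 and 2205 in mutated cells, against 2693, 2678 and 2813 in parental cells on its brightest probe set. The groups did not overlap, with a change of −0.26 (limma, adjusted p = 0.0067), but a dim probe set gave 0.43 and passed in the opposite direction. The others gave −0.07, 0.38 and −0.11 where tested and did not pass. RAB7A is counted as a fall by its brightest probe set, but no single direction can be given for it. RAB32 and RAB38, a pair of relatives that deliver cargo to melanosomes and other lysosome-related organelles, parted. RAB38 had 459, 425 and 456 in mutated cells, against 281, 264 and 269.7 in parental cells, all higher in mutated cells, a change of 0.69 (SE 0.054; limma, adjusted p = 1.25e-04). RAB32 had 72.9, 68.8 and 52.5 in mutated cells, against 106, 108 and 88.4 in parental cells, all lower in mutated cells, a change of −0.54 (SE 0.12; limma, adjusted p = 0.0098). Another relative, RAB29, which recruits the kinase LRRK2 to the Golgi and to stressed lysosomes, fell by 0.34 on the brightest and 0.67 on the next probe set, both past the threshold, and did not pass on a dim probe set (0.22). RAB24, a RAB of autophagy, had 567, 553 and 531 in mutated cells, against 349, 362 and 329 in parental cells. It was higher in every mutated sample, by 0.64 on the log2 scale (SE 0.056; limma, adjusted p = 2.00e-04). RAB9B, a relative of the late endosomal RAB9A, had 87.9, 85.0 and 159 in mutated cells, against 153, 216 and 187 in parental cells. Mutated replicate 3 lies inside the parental range, and the fall by 0.71 (adjusted p = 0.043) did not pass without mutated replicate 1 (adjusted p = 0.12) or 2 (0.12) or parental replicate 2 (0.13) or 3 (0.10). RAB9A, which returns lysosomal enzyme receptors to the Golgi, rose by 0.16 on the log2 scale. RAB42 fell by 0.40, and RAB7B stayed below the filter. RAB39A (0.06) and RAB39B (−0.15) did not pass, although the other probe set of RAB39B gave 0.25 and passed.

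Of 11 tested members of the endoplasmic reticulum and Golgi, 5 rose (45.5%), 1 fell (9.09%) and 5 did not pass, against 30.1% and 18.9% of all genes, again shares of a small group. The relatives RAB33A and RAB33B moved in opposite directions. RAB33A, found mainly in lymphoid cells and brain, had 522, 492 and 479 in mutated cells, against 973, 1075 and 1003 in parental cells. All mutated values were far below the parental ones, a change of −1.01 (SE 0.061; limma, adjusted p = 3.86e-05) on its only probe set. RAB33B, a Golgi RAB that binds the autophagy protein ATG16L1, had 365, 323 and 352 in mutated cells, against 202, 193 and 207 in parental cells. All mutated values were higher, a change of 0.74 (SE 0.062; limma, adjusted p = 1.61e-04). RAB1A, which carries vesicles from the endoplasmic reticulum to the Golgi, had 5695, 5487 and 5296 in mutated cells, against 5206, 5391 and 5124 in parental cells. The groups overlap, and the change of 0.07 did not pass (adjusted p = 0.33) and was −0.01 with median centring, while a dimmer probe set gave 0.34 and passed. Its relative RAB1B rose by 0.26. RAB30, a Golgi RAB, rose by 0.28 on its brightest probe set (adjusted p = 0.035), a call lost with quantile normalization and with median centring, and by 0.56, 0.71, 0.93 and 0.97 on the other 4. RAB6A (0.42), which was read by 1 dim probe set here, and RAB43 (0.21) rose. RAB2A (0.06), RAB2B (−0.02), RAB18 (0.07) and RAB6B (−0.45) did not pass, although 3 of the 6 probe sets of RAB2A rose, and RAB36 stayed below the filter. Of the 2 members grouped under cilia and others, RAB23, a brake on Hedgehog signalling, rose by 0.26. RAB28 (0.04) did not pass, although 1 of its 5 probe sets rose.

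**Figure D2:**
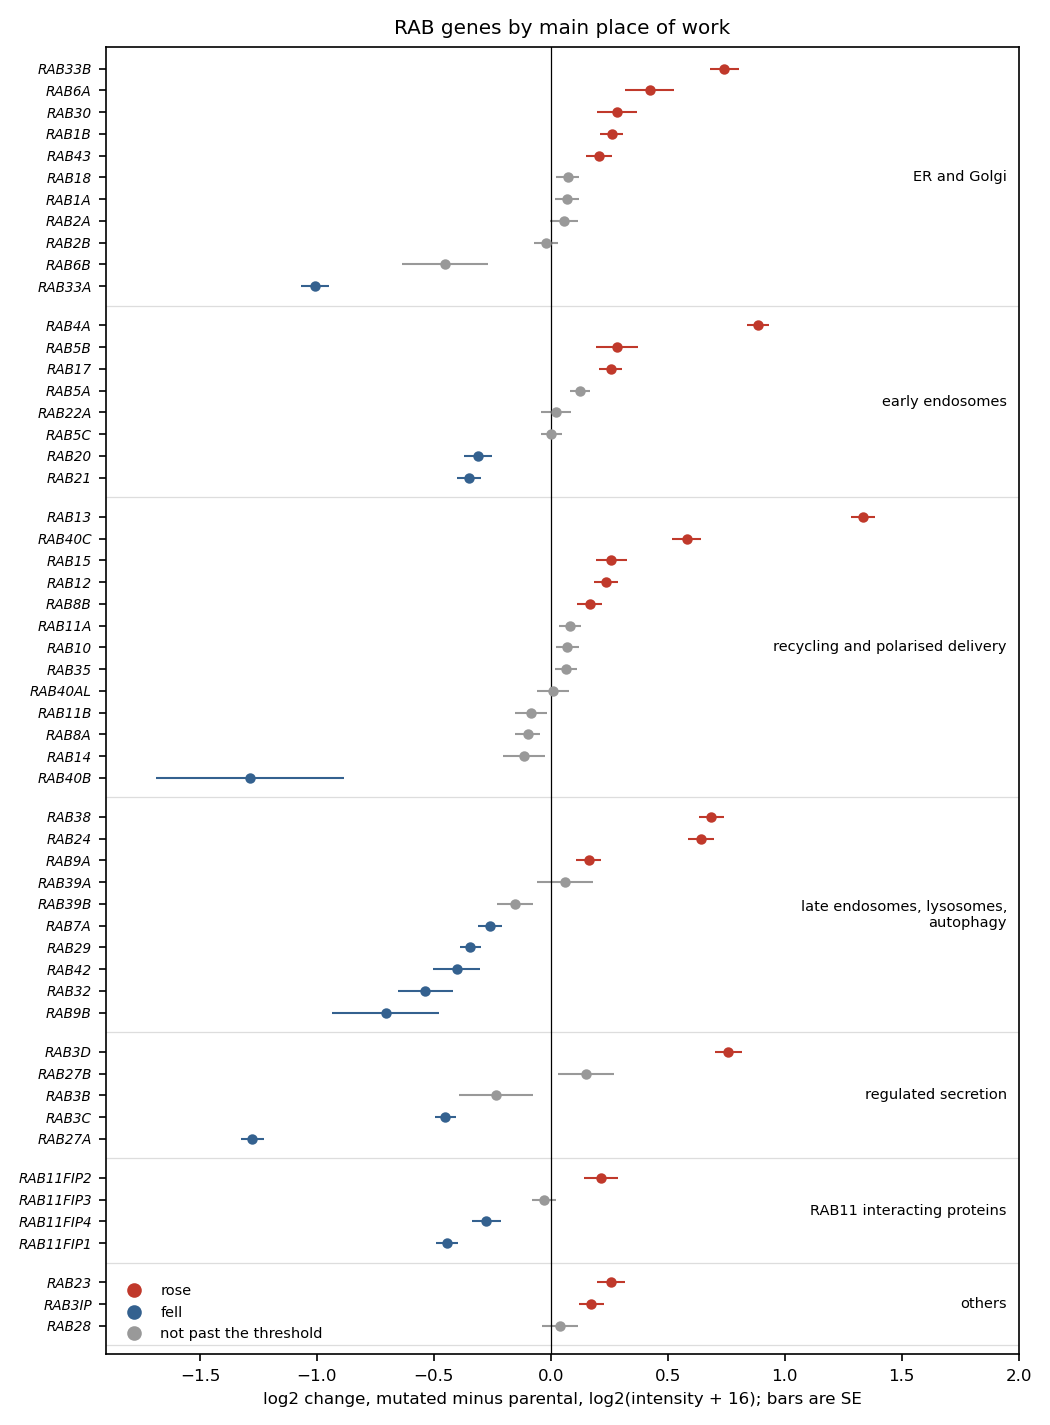
Log2 change, mutated minus parental, of the brightest tested probe set of 54 RAB genes, grouped by the place where the protein is best known to work. Bars are the standard error from limma and colours show which genes passed an adjusted p of 0.05. RAB13 (1.33) and RAB27A (−1.28) stand at the ends among genes with short bars, and RAB40B (−1.29) has the longest bar.

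RefSeq windows from 250 bases before to 50 after a start (GRCh38.p14) were given for 50 of the 64 members. Those of RAB13, RAB27A, RAB4A and RAB3D are shown, the 4 largest called changes with groups apart among members with a window, to set the change beside the sequence in front of each gene. For a gene with several windows the most upstream is shown, and the arrays do not tell which start was used. Capitals mark the E-box CACGTG, read by the MYC and MITF/TFE families, and the GC box GGGCGG or its reverse complement CCGCCC, read by SP factors. The 2 motifs do not overlap in these windows.
RAB13 (chr1:153986290-153986589, minus strand): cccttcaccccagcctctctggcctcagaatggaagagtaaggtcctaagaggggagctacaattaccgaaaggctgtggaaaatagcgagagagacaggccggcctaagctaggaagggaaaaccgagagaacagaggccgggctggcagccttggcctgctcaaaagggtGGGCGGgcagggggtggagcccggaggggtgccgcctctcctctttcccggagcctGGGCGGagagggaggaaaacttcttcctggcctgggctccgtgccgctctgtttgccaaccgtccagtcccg
RAB27A (chr15:55319074-55319373, minus strand): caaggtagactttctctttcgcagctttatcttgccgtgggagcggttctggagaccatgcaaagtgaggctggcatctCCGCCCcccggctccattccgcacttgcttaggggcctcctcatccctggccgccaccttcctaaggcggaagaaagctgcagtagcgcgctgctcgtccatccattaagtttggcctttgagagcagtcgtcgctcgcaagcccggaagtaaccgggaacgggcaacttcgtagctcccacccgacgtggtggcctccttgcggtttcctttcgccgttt
RAB4A (chr1:229270861-229271160, plus strand): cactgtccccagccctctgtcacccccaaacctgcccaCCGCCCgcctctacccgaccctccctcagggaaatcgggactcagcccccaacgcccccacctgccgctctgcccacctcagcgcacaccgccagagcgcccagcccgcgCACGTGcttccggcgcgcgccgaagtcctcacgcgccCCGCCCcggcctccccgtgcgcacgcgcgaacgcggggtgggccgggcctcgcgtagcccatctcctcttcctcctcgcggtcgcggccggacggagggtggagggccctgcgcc
RAB3D (chr19:11339608-11339907, minus strand): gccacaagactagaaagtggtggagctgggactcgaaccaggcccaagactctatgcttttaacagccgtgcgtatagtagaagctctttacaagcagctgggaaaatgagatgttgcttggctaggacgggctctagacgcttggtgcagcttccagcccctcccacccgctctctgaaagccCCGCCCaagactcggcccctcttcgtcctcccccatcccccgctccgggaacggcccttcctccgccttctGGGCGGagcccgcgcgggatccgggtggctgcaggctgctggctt
The RAB4A window holds 1 E-box and the other windows none, and each of the 4 holds a GC box. An E-box is in 6 of 71 member windows (8.45%), against 7.26% of all 35116 windows. A GC box is in 55 of the 71 (77.5%), against 45% of all windows. Each window of a gene is counted, and all windows take in genes whether or not they were tested on the arrays. The difference was not tested and is not shown to be particular to RAB genes. A match is a description of the letters and not a bound site.

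The probe sets of a gene did not always move together. Of 123 tested member probe sets 44 rose and 25 fell (35.8% and 20.3%), against 30.9% and 16.6% of all 32768. Among 32 members with at least 2 tested probe sets, all pointed one way in 19. RAB27A (5 probe sets), RAB30 (5), RAB4A (3), RAB11FIP1 (3) and RAB3C (2) passed in the same direction on every one. RAB9B, RAB13, RAB24, RAB32, RAB33A, RAB33B and RAB38 had 1 tested probe set each, so agreement could not be checked for them. In 5 members there were probe sets past the threshold in both directions. These were RAB7A, RAB14 (0.17 and −0.18), RAB18 (0.66 and 0.65 against −0.22), RAB21 (0.36 against −0.35) and RAB35 (0.42 against −0.56). The RAB21 probe set that rose had 306, 297 and 321 in mutated cells, against 231, 238 and 239.7 in parental cells. The one that fell had 1021, 957 and 948 in mutated cells, against 1281, 1240.4 and 1221 in parental cells. Each pair of groups is apart, so no single direction can be given for RAB21. Of the 21 members whose brightest probe set did not pass, 10 had another that did. These counts of agreement between probe sets were not made over all genes, so they are not shown to be particular to RAB genes. Which transcripts each probe set reads was not analysed here.

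**Figure D3:**
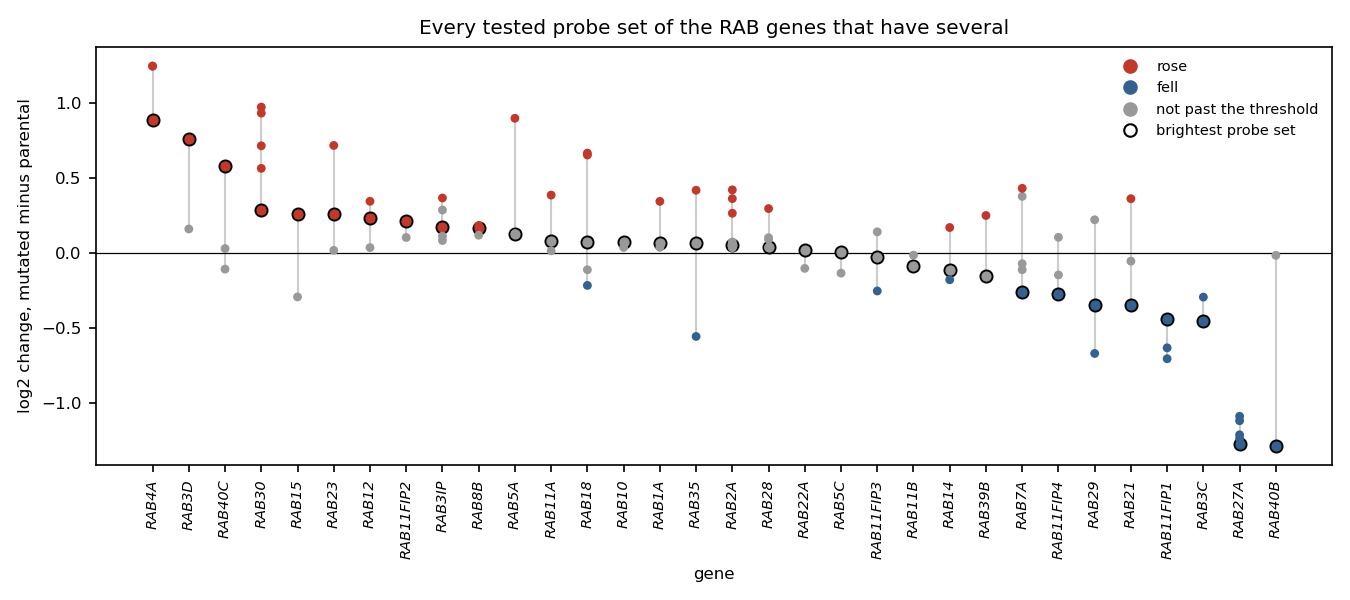
Log2 change, mutated minus parental, of every tested probe set of the 32 RAB genes with several, ordered by the brightest one (ringed). Colours show which passed an adjusted p of 0.05. The 5 probe sets of RAB27A lie between −1.28 and −1.09, while those of RAB35 span −0.56 to 0.42.

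The regulators of RABs were taken from lists of their exchange factors, GTPase-activating proteins, effectors and prenylation factors. Of 40 tested exchange factors, 15 rose (37.5%), 5 fell (12.5%) and 20 did not pass, where 30.1% of all genes tested rose and 18.9% fell, and the median change was 0.10 against 0.04. DENND1B, an exchange factor of RAB35, had 146, 127 and 137 in mutated cells, against 22.5, 20.2 and 20.2 in parental cells. DENND1A, its relative, had 799, 759.8 and 781 in mutated cells, against 225, 224 and 191 in parental cells. Both were far higher in mutated cells, by 2.04 and 1.80 on the log2 scale, though the second probe set of DENND1A gave 0.50. SBF2, a myotubularin relative with a DENN domain, had 178, 180.2 and 187 in mutated cells, against 38.8, 32.4 and 31.1 in parental cells. It rose by 1.98, and by 3.84 on its other probe set. TRAPPC1 (0.69), of the tethering complex that activates RAB1, and DENND6A (0.58), which acts on RAB14, rose as well. MON1A, a subunit of the RAB7 exchange factor, was dim, with 22.6, 18.5 and 26.5 in mutated cells, against 52.5, 26.5 and 50.1 in parental cells. All mutated values are below the parental ones, with mutated replicate 3 and parental replicate 2 almost level, a fall by 0.59 on the log2 scale (limma, adjusted p = 0.042). Its relative MON1B gave −0.05 with overlapping groups and did not pass (adjusted p = 0.48). Of the partner subunit and its near-identical copy, CCZ1 fell by 0.42 and CCZ1B gave 0.24 and did not pass. MON1B, CCZ1 and CCZ1B were picked out after their values were seen.

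Of 33 tested GTPase-activating proteins 9 rose (27.3%), 5 fell (15.2%) and 19 did not pass, both shares below the 30.1% and 18.9% of all genes, with a median change of 0.03. TBC1D9 had 339, 345 and 352 in mutated cells, against 30.2, 21.4 and 25.3 in parental cells. The groups are far apart, a log2 change of 3.12 (SE 0.082; limma, adjusted p = 1.16e-06), with 1.07 on its other probe set. TBC1D4, the brake on glucose transporter traffic known as AS160, had 1558, 1551 and 1491 in mutated cells, against 2786, 2895 and 2901 in parental cells. It fell in every mutated sample, by 0.89 on the log2 scale. USP6NL (0.58), which acts on RAB5, and TBC1D12 (0.45) rose, and TBC1D10C, which is known from lymphocytes, fell by 0.58 and TBC1D8B by 0.52. The counts of this list rest on the brightest probe set of each gene. TBC1D30 did not pass with 0.08 on that probe set but gave 2.43 on another, and TBC1D24 gave −0.05 and −0.55. TBC1D30 and TBC1D24 were picked out after their values were seen.

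Of 53 tested effectors 16 rose (30.2%), 11 fell (20.8%) and 26 did not pass, close to the 30.1% and 18.9% of all genes, with a median change of 0.02. OCRL, an inositol lipid phosphatase recruited by RAB5 and RAB8, had 248, 242 and 228 in mutated cells, against 105, 108 and 99.5 in parental cells. PIK3C3, the VPS34 lipid kinase of early endosomes and autophagy, had 2850.4, 2779.5 and 2625 in mutated cells, against 1626, 1648 and 1577 in parental cells. Both were higher in all mutated samples, by 1.09 and 0.76. All 7 probe sets of PIK3C3 gave positive values, from 0.34 to 1.13, while the other of OCRL gave 0.14. RILP, which ties RAB7 to the dynein motor, fell by 0.66, with 76.6, 90.05 and 63.5 in mutated cells, against 169, 111 and 115 in parental cells. Its groups are apart. APPL2, an effector of RAB5, fell by 0.70 with overlapping groups (30.6, 13.6 and 21.6 in mutated cells, against 28.4, 50.5 and 58.9 in parental cells; adjusted p = 0.049).

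Of the kinases and phosphatases that act on RAB proteins, LRRK2 and PPM1H moved in opposite directions. LRRK2, which phosphorylates RAB8, RAB10, RAB12 and RAB29, had 16.8, 10.3 and 6.99 in mutated cells, against 57.1, 57.1 and 57.8 in parental cells. The mutated values were very dim and all lower, a change of −1.44 (SE 0.12; limma, adjusted p = 1.91e-04). PPM1H, which removes that phosphate, had 145, 166 and 187 in mutated cells, against 11.0, 10.1 and 10.1 in parental cells. Here the parental values were the very dim ones, a change of 2.78 (SE 0.089; limma, adjusted p = 2.66e-06). LRRK1 did not pass. Of these 3 tested genes 1 rose and 1 fell (33.3% each), against 30.1% and 18.9% of all genes, and the list is too short for a comparison of shares. LRRK1 and LRRK2 are also counted among the effectors. Of 8 tested genes of prenylation and membrane cycling, 2 rose (25%), 1 fell (12.5%) and 5 did not pass, against 30.1% and 18.9% of all genes. CHML, an escort of newly made RABs, rose by 0.64 and RABAC1 by 0.33. RABGGTB, the beta subunit of the enzyme that adds the lipid tails of RABs, fell by 0.16. Without mutated replicate 1 or 2, or parental replicate 2 or 3, the list held 1 called gene in place of 3.

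**Figure D4:**
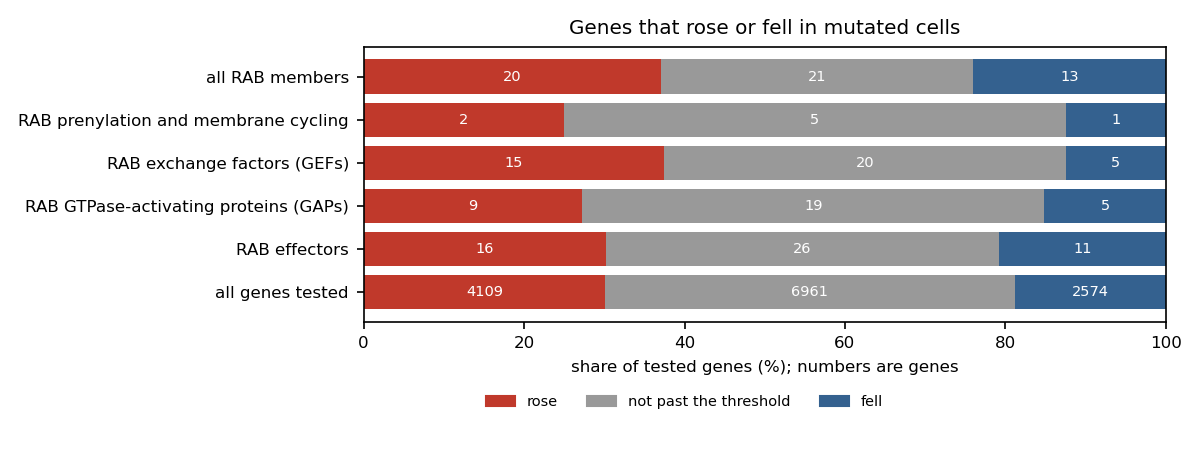
Share of tested genes (%) higher, not called or lower in mutated cells by limma (adjusted p threshold 0.05), for the RAB members, 4 lists of RAB regulators and all 13644 genes tested; numbers in the bars are genes. The share of genes higher is 37.5% in exchange factors, 37% in RAB members and 30.2% in effectors. It is 27.3% in GTPase-activating proteins and 25% in prenylation and membrane cycling, against 30.1% of all genes.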

How the data were processed

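Expression was measured on microarrays, 1 per sample, from column-purified RNA and biotin-labelled cRNA made by in vitro transcription, per the labels' protocols. The deposited values are linear intensities per probe set, as the authors gave them; no source used here names their background correction, summary or normalization. Each value was taken as log2(intensity + 16), and the dimmest 40% of probe sets by mean were left out, which left 32768 of 54613. limma 3.58.1 (R 4.3.3; lmFit and eBayes, two-sided, group only) tested mutated against parental samples, with Benjamini-Hochberg adjustment over all tested probe sets and a threshold of 0.05. The test was tried on simulated data. Symbols come from the platform annotation: 41091 probe sets have 1 symbol, 1801 several and 11721 none. A gene is represented by its brightest tested probe set with 1 symbol. The number of arrays, 6, limits the precision.

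The members and lists were chosen with earlier results of these data known. Values by sample are given for called members with an absolute log2 change of at least 0.5 and for RAB1A, RAB5A, RAB7A, RAB11A and RAB27A, with some others added for context. Of each regulator list, up to 6 called genes of largest absolute change are named. Alternatives changed the scaling, filter, pseudocount, moderation, block and probe set rule, and left out each sample in turn.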

Additional observations from a re-analysis of the deposited data

How the results depend on the processing

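Of the 33 called members, 15 kept the same call in every alternative that tested them. The alternatives gave 253 values for the 12 members with a called change of at least 0.5 and for RAB1A, RAB5A, RAB7A and RAB11A. Of these values 224 kept direction and side of the threshold, 17 lost the call, 9 gained one and 3 turned sign. These were RAB1A with median centring (−0.012), RAB40C without probe sets of shared-transcript suffixes (−0.11) and RAB7A as the mean over its probe sets (0.072). The number of members that rose was 20, and 10 with median centring; leaving out 1 sample gave 12 to 18 that rose and 10 to 13 that fell. Called genes of prenylation and membrane cycling numbered 3, and 6 with quantile normalization or 1 to 3 without 1 sample. Of the kinases and phosphatases 2 were called, and 0 with the dimmest 60% left out, when only 1 was tested. Apart from that last count the cause was not tested. Deviations from group means correlated at 0.11, 0.027 and 0.11 between same-numbered samples, and at −0.11 to 0.0028 between differently numbered ones. All are weak, but the same-numbered ones are the highest, and whether the numbers mark pairs cannot be told from the labels. With the replicate block 15 members rose, and 28 of the 33 calls were kept. Without the filter on dim values the calls of RAB9B and RAB40B failed (adjusted p 0.077 and 0.068), as did those of RAB11FIP2, RAB30, RAB3IP, RAB43, RAB5B, RAB8B and RAB9A.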
